A study of Mus musculus with 20 samples.

Results

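Transcripts of 8 zinc-handling genes were followed in macrophages by genotype and stimulation. The genes were chosen by symbol and comprise the metallothioneins Mt1 and Mt2, the zinc-sensing factor Mtf1, the zinc exporters Slc30a1 and Slc30a4, and the zinc importers Slc39a14, Slc39a10 and Slc39a6. All 8 were present once among the 56748 genes of each count table, and all 8 passed the minimum of 10 counts in total in both experiments, where 18691 and 19569 genes were tested.

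The first experiment held 12 libraries, 3 in each of 4 groups, from wildtype (WT) and iNOS knockout (KO) cells (strain B6.129P2-Nos2tm1Lau/J in the study's methods) that were unstimulated or had received LPS at 50 ng/mL plus IFNγ at 30 ng/mL for 48 h. The labels name these cells as bone marrow-derived macrophages (BMDM) of C57BL/6J mice aged 6 to 12 weeks, kept in M-CSF, whereas the study's methods describe RNA from RAW264.7 cells for the same groups, so the cell type of these libraries is unsettled. The study's methods describe bone marrow pooled by genotype for its BMDMs, so the 3 libraries of a group may not stand for 3 animals and the p-values measure the spread between these libraries. The second experiment held 8 libraries, 2 in each of 4 groups, from WT and Akr1a1 KO RAW264.7 cells, a mouse macrophage-like line, unstimulated or given LPS at 50 ng/mL plus 10 ng/mL of IFNγ for 48 h. The knockouts of the second experiment were made with CRISPR-Cas9, and the study's methods call its replicates independent clones. Both unstimulated RAW264.7 libraries with the letter B have a title that says stimulated, but their treatment field and library name say unstimulated, and they were placed with the unstimulated group.

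Cells keep free zinc low by binding it to metallothioneins, small cysteine-rich proteins, and by moving it across membranes. Transporters of the SLC30 family carry zinc out of the cytosol and those of the SLC39 family carry it in. When zinc rises, MTF1 binds metal response elements (MREs) near the start of genes such as Mt1, Mt2 and Slc30a1 and activates them. Macrophages stimulated with LPS and IFNγ change zinc handling as part of nutritional immunity, and nitric oxide, which iNOS (encoded by Nos2) makes in these cells, can react with the thiols that hold zinc in metallothionein. AKR1A1 is an aldo-keto reductase that reduces S-nitroso-coenzyme A.

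The start regions of Mt1, Mt2 and Slc30a1 are shown because these are the classical MTF1 target genes among the 8. The sequences are from RefSeq, build GRCm38.p6, on the plus strand, and run 5′ to 3′. Positions are counted from the start on which RefSeq's start region is built, base 94172618 of chromosome 8 for Mt2, 94179089 of chromosome 8 for Mt1 and 191906781 of chromosome 1 for Slc30a1. For Mt2 this is also the gene start that RefSeq lists, whereas the listed gene starts of Mt1 (94178883) and Slc30a1 (191906697) lie further upstream, so part of their start regions lies inside the listed gene. The 250 bases before the start are therefore printed for Mt2 (chr8:94172368-94172617), and for Mt1 (chr8:94179052-94179081) and Slc30a1 (chr1:191906727-191906756) only 30 bases that hold the core before the start. Both of these shorter stretches, with their marked cores, lie downstream of the listed gene starts and so inside the listed genes. Capitals mark matches to the MRE core, searched as TGCACNC or TGCGCNC on both strands.
Mt1: gggcggtcccgctgTGCACACtggcgctcc
Mt2: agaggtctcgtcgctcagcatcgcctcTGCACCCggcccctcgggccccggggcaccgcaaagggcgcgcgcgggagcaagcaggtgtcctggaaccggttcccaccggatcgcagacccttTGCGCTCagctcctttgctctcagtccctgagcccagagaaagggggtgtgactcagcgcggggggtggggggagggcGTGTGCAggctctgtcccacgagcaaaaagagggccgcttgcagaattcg
Slc30a1: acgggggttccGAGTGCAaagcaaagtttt

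RefSeq start regions of 300 bases, from 250 before to 50 after the start, were matched to 6 of the 8 genes, and those of Slc39a14 and Slc39a6 were not among them. Over this window Mt2 held 4 MRE cores, Mt1 held 3, Slc30a4 held 3 and Slc30a1 held 2, while Mtf1 and both starts of Slc39a10 held 0. Among all 32851 start regions of this length, 25.7% held at least 1 MRE core. This window was taken after the 250 bases before the start had been searched, where Mt2 held 3 cores, Slc30a4 held 2, Mt1 and Slc30a1 held 1 each, and 21.4% of all regions held at least 1. The Mt1 cores lay at -23 to -17, 3 to 9 and 21 to 27 from the start, and those of Slc30a1 at -43 to -37 and 31 to 37. The core of the antioxidant response element (ARE), searched as TGACNNNGC on both strands, was found once in Mt2 at -79 to -71 and once in Slc30a1 at -82 to -74, and in 12.4% of all start regions. A match is a stretch of letters and not a measured binding site.

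**Figure D1:**
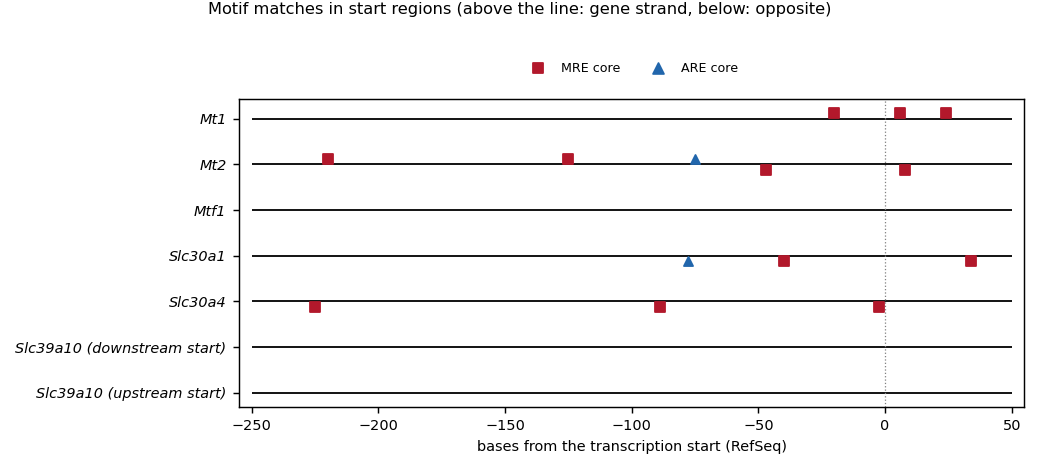
Position of MRE core (red squares) and ARE core (blue triangles) matches in the 7 RefSeq start regions of 6 zinc genes, in bases from the transcription start (dotted line). Symbols above a line are on the gene's strand and those below on the opposite strand. Mt2 has 4 MRE cores, and Mtf1 and Slc39a10 have 0.

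Depth was 15072109 to 18878107 counts per library in the first experiment and 11876719 to 44583327 in the second. Nos2 was at 10370 to 11533 CPM (counts per library size, scaled by TMM) in stimulated WT and at 871 to 912 in stimulated iNOS KO libraries labelled BMDM, and it was at 0 in unstimulated iNOS KO libraries. In RAW264.7 cells Nos2 was at 4155 to 8806 CPM in stimulated and at 4.21 to 54.7 CPM in unstimulated libraries, the 2 with conflicting titles included. Akr1a1 was at 427 to 675 CPM in WT RAW264.7 libraries. In Akr1a1 KO libraries A and B it was at 206 and 21.8 CPM unstimulated and at 370 and 212 CPM stimulated. The difference between the genotypes was not called by edgeR's quasi-likelihood test in either state (adjusted p = 0.64 stimulated and 0.56 unstimulated). The study's methods state that the knockout clones were screened for the protein by immunoblot. All 8 macrophage markers had counts in every group except for Mertk in unstimulated Akr1a1 KO cells. Mertk had at most 3 counts in any RAW264.7 library. The 8 neutrophil markers summed to 0.433 to 1.17 CPM in unstimulated and 35.7 to 62.1 CPM in stimulated libraries labelled BMDM, with S100a8 as most of the sum and with Ly6g and Ltf at 0 in all 4 groups. In RAW264.7 cells they summed to 0.218 to 0.624 CPM unstimulated and 121 to 420 CPM stimulated, where S100a8 alone was at 121 to 419 CPM. The 6 fibroblast markers summed to at most 0.293 CPM in unstimulated libraries labelled BMDM, 3.65 to 4.92 CPM in stimulated WT and 11.3 to 16.6 CPM in stimulated iNOS KO ones, with Col3a1 at 0 in all of them. The 8 macrophage markers summed to 7210 to 7563 CPM in unstimulated WT, 6581 to 7360 in stimulated WT, 4952 to 5245 in unstimulated iNOS KO and 9968 to 10410 CPM in stimulated iNOS KO libraries. In RAW264.7 cells they summed to 3952 to 4484 CPM in unstimulated WT, 9111 to 9954 in stimulated WT, 2903 to 3161 in unstimulated Akr1a1 KO and 3335 to 7008 CPM in stimulated Akr1a1 KO libraries. The 7 lymphocyte markers summed to at most 1.04 CPM in any library. The part of these markers in the results below was not tested, and in bulk RNA fewer cells of a type and less RNA per cell cannot be told apart.

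Per kilobase of gene length, Mt1 was the most abundant of the 8 genes in all 8 groups. In unstimulated WT libraries labelled BMDM it stood at 264 ± 8.20 CPM per kilobase (SD, n = 3), followed by Slc39a6 at 29.3 ± 1.35. Below these came Slc39a10, Slc30a1 and Slc30a4 between 8.93 and 10.3 CPM per kilobase, whose ranges overlapped from one to the next, then Slc39a14 at 6.18, and Mt2 at 3.15 and Mtf1 at 3.13, whose ranges also overlapped. After stimulation the order in WT changed to Mt1 (507), Slc39a6 (29.4), Mt2 (21.0), Slc30a1 (13.7), Mtf1 (9.01), Slc30a4 (7.65), Slc39a14 (6.55) and Slc39a10 (4.53), and of these neighbours only Slc30a4 and Slc39a14 overlapped. Mt2 and Mtf1 thus stood at the bottom of this order before stimulation, and Slc39a10 after it. In unstimulated WT RAW264.7 cells Mt1 stood at 214 ± 21.4 CPM per kilobase (SD, n = 2) and Slc39a10 was next at 24.5 ± 0.363.

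**Figure D2:**
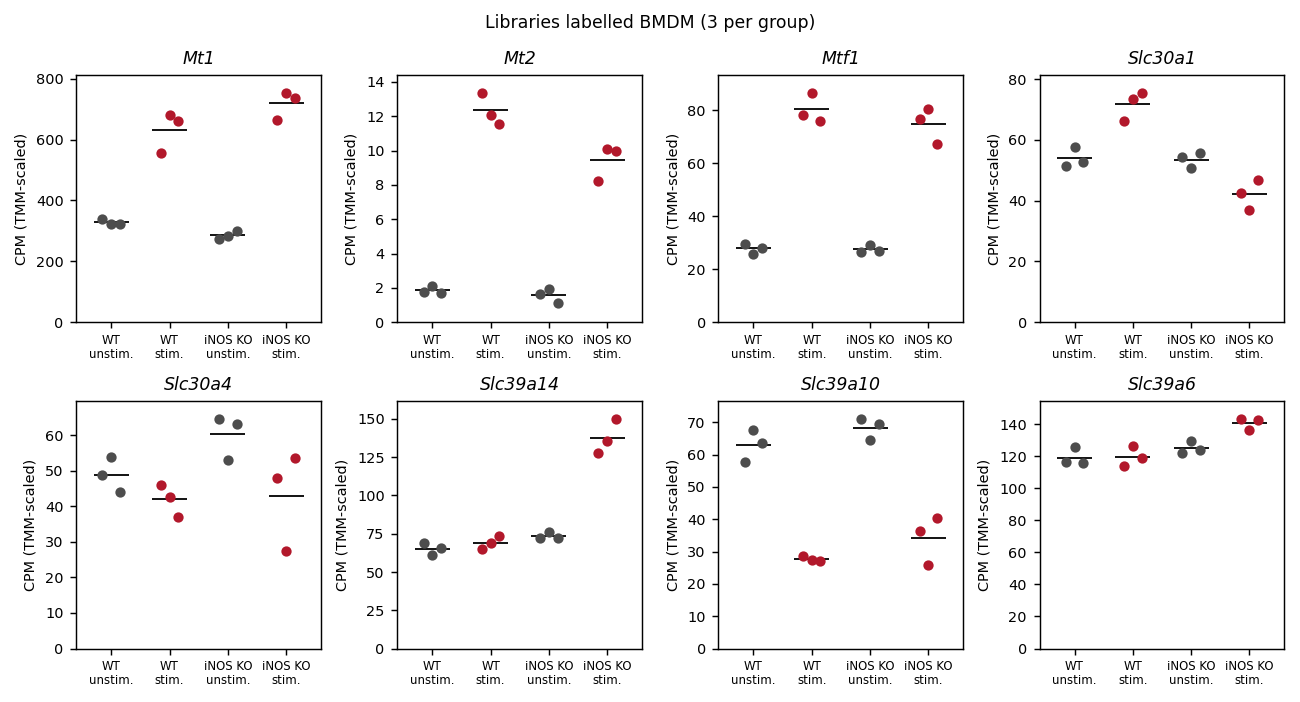
TMM-scaled CPM of the 8 zinc genes in the 12 libraries labelled BMDM, 3 points per group and a line at the mean, grey for unstimulated and red for stimulated cells. Stimulated and unstimulated libraries of a genotype do not overlap for Mt1, Mt2, Mtf1, Slc30a1 and Slc39a10, and Slc39a14 is at 127 to 150 CPM in stimulated iNOS KO libraries and at 61.4 to 76.2 in all others.

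The first question was how stimulation for 48 h changed the zinc genes in WT cells. In the libraries labelled BMDM, 4 of the 8 rose and 1 fell by edgeR's quasi-likelihood test at an adjusted p under 0.05, against 32.4% of all genes tested that rose and 28.5% that fell. The 4 were both metallothioneins, Mtf1 and the exporter Slc30a1, and the gene that fell was the importer Slc39a10. The median log2 fold change of the 8 was 0.25, and that of all genes tested was 0.07.

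Mt1 was at 341, 323 and 323 CPM in unstimulated WT libraries A, B and C and at 555, 680 and 660 CPM in stimulated ones. Mt2 was at 1.74, 2.11 and 1.70 CPM before and at 13.4, 12.1 and 11.6 CPM after stimulation. Every stimulated library stood above every unstimulated one for both metallothioneins. On the log2 scale Mt1 rose by 0.94 (SE 0.0766, adjusted p = 9.56e-09) and Mt2 by 2.73 (SE 0.170, adjusted p = 2.69e-10). Mt2 rested on few counts, 29 to 38 per library before and 167 to 193 after stimulation, while Mt1 had 5506 to 10069. Mt2 overlaps the lncRNA Gm45774 on the opposite strand, which had at most 18 counts in these libraries, where Mt2 had at least 23, and at most 11 in RAW264.7 libraries, where Mt2 had at least 12. Whether reads over both genes were counted for Mt2 is not given in the sources used here. The level of Mt2 and its ratio to Mt1 may depend on this in both experiments. The ratio of Mt1 to Mt2 per kilobase, 72.1 to 92.1 in unstimulated WT libraries, was 19.6 to 26.9 in stimulated ones. The level of this ratio depends on the listed gene lengths, here and in the other groups. For Mt1 the length is 1246 bases, its whole listed span, and for Mt2 588 bases, less than its span. As counts the ratio was 153 to 195 in unstimulated and 41.5 to 57.0 in stimulated WT libraries. Both metallothionein genes lie on chromosome 8 in the tables, whose positions are given here as listed and are not GRCm38.p6 positions, Mt2 (ENSMUSG00000031762) at chr8:94899292-94900196 and Mt1 (ENSMUSG00000031765) at chr8:94905710-94906955, both on the plus strand.

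Mtf1 (ENSMUSG00000028890, chr4:124695897-124743593), whose protein activates both, was at 29.7, 25.7 and 28.2 CPM in unstimulated and 78.3, 86.6 and 76.1 CPM in stimulated WT libraries. The groups did not overlap, and Mtf1 rose by 1.53 on the log2 scale (SE 0.0873, adjusted p = 8.99e-11). On the opposite strand Mtf1 overlaps 1110065P20Rik, which had at most 355 counts against at least 463 for Mtf1, and without strand in the counting the reads of such partners cannot be told apart. In RAW264.7 libraries 1110065P20Rik had up to 340 counts and Mtf1 at least 324.

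Slc30a1 (ENSMUSG00000037434, chr1:191638879-191645359), the zinc exporter of the plasma membrane, was at 51.3, 57.8 and 52.7 CPM in unstimulated and 66.3, 73.5 and 75.5 CPM in stimulated WT libraries. It rose by 0.41 (SE 0.0881, adjusted p = 0.000629), but with library totals as the only scaling, which moved the median of all genes by -0.46, its change was -0.05 (adjusted p = 0.626). Slc30a4 (ENSMUSG00000005802, chr2:122523153-122544583), which carries zinc into vesicles, spanned 44.1 to 53.8 CPM unstimulated and 37.1 to 46.0 CPM stimulated, and these overlapped. The log2 fold change of Slc30a4 was -0.22 (SE 0.172, adjusted p = 0.281), and it passed without iNOS KO stimulated library B (adjusted p = 0.0238 at the same fold change) and in a fit of the 2 WT groups alone (-0.28, adjusted p = 0.00734).

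Slc39a10 (ENSMUSG00000025986, chr1:46846704-46932012), an importer of the plasma membrane, was at 57.7, 67.7 and 63.6 CPM in unstimulated and 28.5, 27.4 and 27.0 CPM in stimulated WT libraries. The groups did not overlap, and it fell by 1.19 on the log2 scale (SE 0.121, adjusted p = 1.67e-07). Slc39a14 (ENSMUSG00000022094, chr14:70540918-70588874), an importer of zinc and of iron not bound to transferrin, spanned 61.4 to 68.8 CPM unstimulated and 64.9 to 73.6 CPM stimulated. Its log2 fold change was 0.08 (SE 0.0775, adjusted p = 0.376), and that of Slc39a6 (ENSMUSG00000024270, chr18:24712938-24736874), another importer of the plasma membrane, was 0.01 (SE 0.0644, adjusted p = 0.923). With library totals alone these values were -0.38 for Slc39a14 and -0.46 for Slc39a6, which is near the -0.46 by which that scaling moved the median of all genes. Slc39a6 overlaps Elp2 on the opposite strand, with up to 2029 counts in these libraries against at least 1644 for Slc39a6, and up to 7431 against at least 806 in RAW264.7 libraries.

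In iNOS KO cells of the same experiment, stimulation raised 5 of the 8 genes and lowered 3, against 27.3% and 24.6% of all genes tested. The median log2 fold change of the 8 was 0.54 and that of all genes was 0.00. The 5 were Mt1, Mt2, Mtf1, Slc39a14 and Slc39a6, and the 3 were Slc30a1, Slc30a4 and Slc39a10.

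Mt1 was at 273, 283 and 301 CPM in unstimulated and 666, 753 and 737 CPM in stimulated iNOS KO libraries and rose by 1.33 (SE 0.0771, adjusted p = 2.13e-10). Mt2 was at 1.64, 1.94 and 1.12 CPM before and 8.23, 10.1 and 9.97 CPM after stimulation and rose by 2.58 (SE 0.174, adjusted p = 1.63e-09). Mtf1 spanned 26.7 to 29.0 CPM unstimulated and 67.4 to 80.6 CPM stimulated and rose by 1.44 (SE 0.0868, adjusted p = 3.54e-10). For all 3 genes the stimulated and unstimulated iNOS KO libraries did not overlap, and the ratio of Mt1 to Mt2 per kilobase was 68.9 to 127 before and 34.9 to 38.2 after stimulation.

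Among the exporters, Slc30a1 was at 54.4, 50.7 and 55.6 CPM in unstimulated and 42.7, 37.1 and 46.8 CPM in stimulated iNOS KO libraries. It fell by 0.34 (SE 0.0892, adjusted p = 0.0039), the opposite direction to WT. Slc30a4 fell by 0.49 (SE 0.171, adjusted p = 0.0247) from 64.5, 53.2 and 63.2 CPM to 47.9, 27.3 and 53.5 CPM, where library B was the lowest and the groups overlapped. Without unstimulated iNOS KO library A or C the adjusted p of Slc30a4 was 0.0813 or 0.0712, and in a fit of the 2 iNOS KO groups alone it was 0.0801 (0.0115 with the replicate letter as a block).

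Slc39a14 rose from 72.0, 76.2 and 72.4 CPM in unstimulated to 127, 135 and 150 CPM in stimulated iNOS KO libraries. Its log2 fold change was 0.90 (SE 0.0764, adjusted p = 3.02e-08), and the groups did not overlap. Slc39a10 fell by 0.99 (SE 0.118, adjusted p = 1.99e-06) from 64.6 to 71.0 CPM to 25.96 to 40.3 CPM. The rise of Slc39a6 was small, 0.17 (SE 0.0641, adjusted p = 0.0333), and was lost in a fit of the 2 iNOS KO groups alone (adjusted p = 0.0586, or 0.0676 with the replicate letter as a block), with DESeq2 size factors (adjusted p = 0.0516) and without the filter on low counts (adjusted p = 0.0957). With library totals alone its value was -0.25. The call of Slc39a6 was also lost without stimulated iNOS KO library A or C (adjusted p = 0.125 and 0.0739) and without unstimulated A or C (adjusted p = 0.104 and 0.0952).

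The comparison of iNOS KO with WT in the stimulated state asked which of these levels depended on iNOS. Of the 8 genes, 3 were higher and 2 were lower in iNOS KO, against 24.2% and 24.2% of all genes tested. All 3 importers were higher, and the exporter Slc30a1 and the metallothionein Mt2 were lower. The median log2 fold change of the 8 was 0.11 and that of all genes was -0.04.

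Slc39a14 was at 64.9, 68.8 and 73.6 CPM in stimulated WT and at 127, 135 and 150 CPM in stimulated iNOS KO libraries. It was higher in iNOS KO by 0.99 on the log2 scale (SE 0.0772, adjusted p = 1.23e-08), with no overlap. Slc30a1 was at 66.3, 73.5 and 75.5 CPM in WT and 42.7, 37.1 and 46.8 CPM in iNOS KO, and its log2 fold change was -0.76 (SE 0.0896, adjusted p = 1.84e-06), again with no overlap. Within a library, the ratio of Slc39a14 to Slc30a1 per kilobase was 0.466 to 0.487 in stimulated WT and 1.48 to 1.82 in stimulated iNOS KO libraries, and 0.529 to 0.747 in the 6 unstimulated libraries. The ratio joins 2 genes whose opposite differences have just been given, and it is a description of them and no further support.

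Slc39a6 was at 114 to 127 CPM in WT and 137 to 143 CPM in iNOS KO, a log2 fold change of 0.23 (SE 0.0645, adjusted p = 0.00636). The call of Slc39a10 at 0.31 (SE 0.123, adjusted p = 0.0453) rested on overlapping groups, 27.0 to 28.5 CPM in WT and 25.96 to 40.3 CPM in iNOS KO, and was lost under DESeq2 (adjusted p = 0.051), in a fit of the 2 stimulated groups alone (adjusted p = 0.0658), with the replicate block (adjusted p = 0.0522) and whenever any library was left out except for iNOS KO stimulated B. Mt2 was at 11.6 to 13.4 CPM in WT and 8.23 to 10.1 CPM in iNOS KO, with no overlap and a log2 fold change of -0.39 (SE 0.141, adjusted p = 0.0308). Its adjusted p was 0.11 without iNOS KO stimulated library A, 0.11 without WT stimulated library A and 0.0577 without WT stimulated library B. The call of Mt2 was also lost in a fit of the 2 stimulated groups alone (-0.32, adjusted p = 0.0807) and with library totals alone (-0.29, adjusted p = 0.11). Mt1, at 555 to 680 CPM in WT and 666 to 753 CPM in iNOS KO, missed the threshold with a log2 fold change of 0.19 (SE 0.0758, adjusted p = 0.0529), and it was 0.24 (adjusted p = 0.028) without WT stimulated library B and 0.22 (adjusted p = 0.038) without iNOS KO stimulated library A. In a fit of the 2 stimulated groups alone Mt1 was at 0.26 (adjusted p = 0.0392), and with the replicate block at 0.19 (adjusted p = 0.0375). Mtf1 differed by -0.10 (SE 0.0836, adjusted p = 0.348) and Slc30a4 by 0.04 (SE 0.174, adjusted p = 0.884), and without iNOS KO stimulated library B Slc30a4 was higher in iNOS KO by 0.28 (adjusted p = 0.0171).

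In the unstimulated state, 0 of the 8 genes differed between iNOS KO and WT by edgeR at an adjusted p under 0.05, where 5.98% of all genes tested did. At an unadjusted p under 0.05 there were 2, beside 3200 of the 18691 genes tested, and DESeq2 called 0 of the 8. The log2 fold changes of the 8 ran from -0.24 for Mt2 to 0.30 for Slc30a4. A fit of these 2 groups alone called more of all genes. In it 3 of the 8 passed, Mt1 at -0.18 (adjusted p = 0.00923), Slc30a4 at 0.33 (adjusted p = 0.00716) and Slc39a14 at 0.20 (adjusted p = 0.0155). Without iNOS KO stimulated library B, Mt1 and Slc30a4 passed at their fold changes of -0.20 and 0.30 (adjusted p = 0.0281 and 0.012). Mt1 was at 323 to 341 CPM in WT and 273 to 301 CPM in iNOS KO, which did not overlap, nor did Slc39a14 at 61.4 to 68.8 and 72.0 to 76.2 CPM.

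The test of the difference itself, the response of iNOS KO minus that of WT, passed for 3 of the 8 genes, 2 higher and 1 lower, against 20.0% and 15.4% of all genes. Slc39a14 responded more strongly in iNOS KO by 0.82 (SE 0.109, adjusted p = 1.32e-05) and Mt1 by 0.39 (SE 0.107, adjusted p = 0.00908). For Slc30a1 the difference was -0.75 (SE 0.125, adjusted p = 0.000139). These 3 calls held with each library left out in turn and with library totals as the only scaling. The differences of Mt2 (-0.15, SE 0.258, adjusted p = 0.722) and Mtf1 (-0.08, SE 0.122, adjusted p = 0.658) did not pass, and that of Slc39a10 was 0.20 (adjusted p = 0.413), or 0.36 (adjusted p = 0.0063) without iNOS KO stimulated library B.

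**Figure D3:**
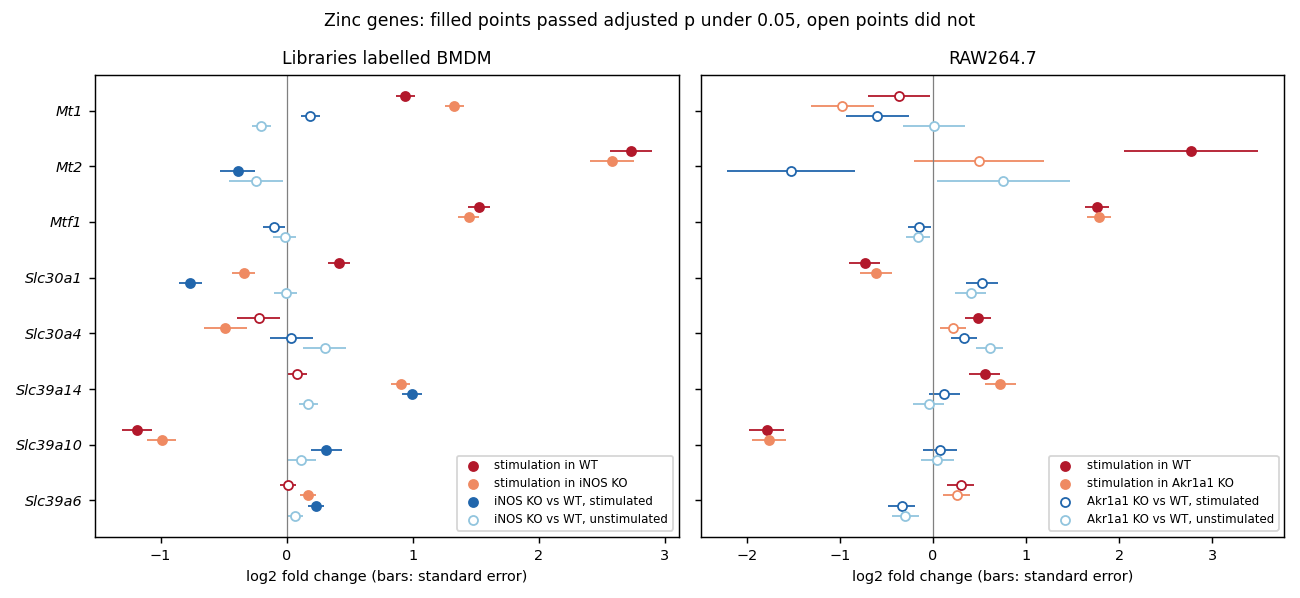
Log2 fold changes of the 8 zinc genes with standard errors, for the libraries labelled BMDM (left) and RAW264.7 cells (right), with filled points for an adjusted p under 0.05 in edgeR. Slc30a1 moves in opposite directions with stimulation in WT (0.41) and iNOS KO (-0.34), Slc39a14 rises in iNOS KO (0.90), and no comparison of Akr1a1 KO with WT has a filled point.

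The other genes of zinc transport were read from a list of 8 further SLC30 and 11 further SLC39 genes. Of the exporters, 5 were tested in the libraries labelled BMDM. In WT 3 rose with stimulation (Slc30a9, Slc30a7 and Slc30a6) and 1 fell (Slc30a5), in iNOS KO 3 rose and 1 fell, and in stimulated iNOS KO against WT 1 was higher and 2 were lower. Of all genes tested, 32.4% rose and 28.5% fell in WT, 27.3% and 24.6% did so in iNOS KO, and 24.2% each were higher and lower between the genotypes. The median log2 fold change of the 5 was 0.96 in WT and 0.03 between genotypes. Slc30a9, linked to zinc handling in mitochondria, spanned 60.2 to 66.0 CPM unstimulated and 123 to 130 CPM stimulated in WT, and at 60.8 to 65.5 and 55.9 to 68.8 CPM in iNOS KO. It rose by 1.01 in WT (SE 0.0776, adjusted p = 4.6e-09), its value in iNOS KO was 0.00 (adjusted p = 0.97), and the difference between the responses was -1.01 (SE 0.110, adjusted p = 1.4e-06). Slc30a7, a transporter into the Golgi, rose by 0.96 in WT and 0.51 in iNOS KO, a difference of -0.45 (SE 0.0835, adjusted p = 0.00037). Slc30a5, which works in the early secretory pathway, fell by 1.19 in WT and by 0.86 in iNOS KO, a difference of 0.33 (SE 0.0992, adjusted p = 0.015).

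Of the other importers, 10 of 11 were tested. In WT 4 rose and 1 fell with stimulation, in iNOS KO 3 rose and 0 fell, and in stimulated iNOS KO against WT 2 were higher and 3 lower, with a median log2 fold change of 0.09, 0.16 and 0.00. The 4 of 10 and 3 of 10 that rose stand beside 32.4% and 27.3% of all genes tested, and the 1 and 0 that fell beside 28.5% and 24.6%. The 2 higher and 3 lower between the genotypes stand beside 24.2% of all genes in each direction. Slc39a2 had the largest rise of the 10 in both genotypes, from 2.00 to 2.72 CPM in the 6 unstimulated libraries to 26.7 to 35.0 CPM in the 6 stimulated ones, by 3.65 in WT (SE 0.137, adjusted p = 3.3e-13) and 3.62 in iNOS KO (SE 0.136, adjusted p = 6.1e-13). Slc39a1 rose by 0.70 in WT and 1.25 in iNOS KO, and the difference between the responses was 0.55 (SE 0.106, adjusted p = 0.00055). Slc39a3 rose by 0.73 in WT and its value in iNOS KO was 0.17 (adjusted p = 0.19), with a difference of -0.56 (SE 0.143, adjusted p = 0.0055). Slc39a4, known for zinc uptake in the gut, was at 0.900 to 2.00 CPM in WT and unstimulated iNOS KO libraries and at 2.74 to 3.66 CPM in stimulated iNOS KO ones, where it was higher than in WT by 1.27 (SE 0.294, adjusted p = 0.0016). Slc39a5, the importer that fell in WT, had 10 to 24 counts before and 2 to 5 after stimulation (log2 fold change -1.82, SE 0.490, adjusted p = 0.0040).

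**Figure D4:**
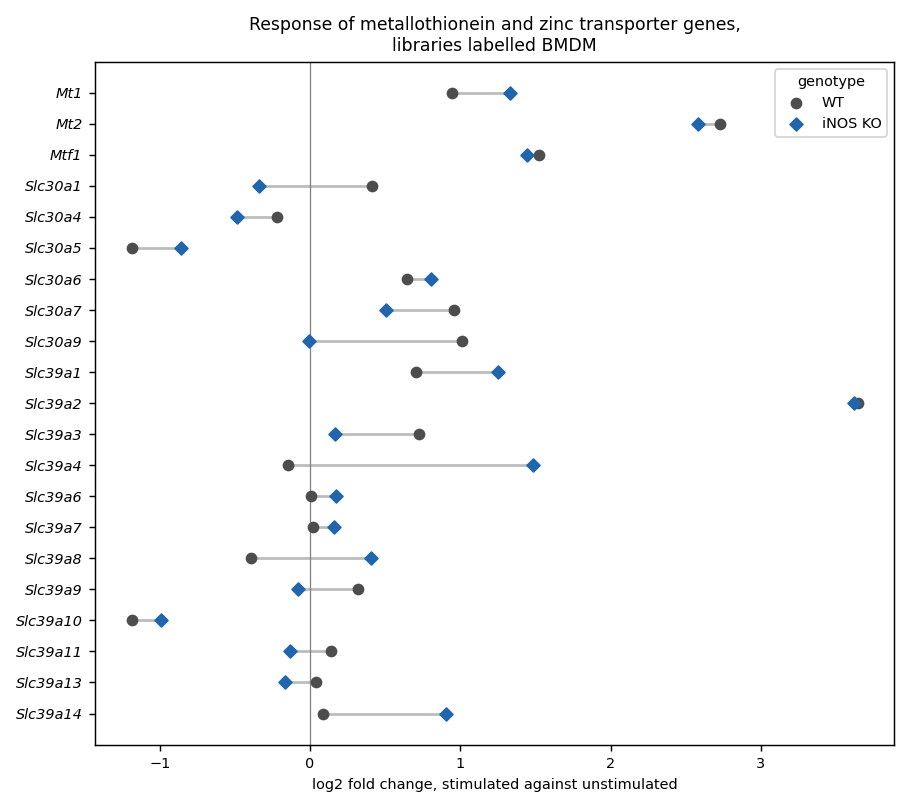
Log2 fold change with stimulation in WT (grey circles) and iNOS KO (blue diamonds) for the 8 zinc genes and the other SLC30 and SLC39 genes that reached a group mean of 1 CPM in the libraries labelled BMDM, joined by a line per gene. Slc30a9 is at 1.01 in WT and 0.00 in iNOS KO, Slc39a14 at 0.08 and 0.90, and Slc39a2 at 3.65 and 3.62.

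Other genes known as MTF1 targets were read from a list of 5. Of these, 3 rose and 2 fell with stimulation in WT, and between genotypes after stimulation 2 were higher and 2 lower in iNOS KO, with medians of 0.23 and 0.20, against 32.4% that rose, 28.5% that fell and 24.2% each between genotypes among all genes tested. Selenoh, a nuclear selenoprotein, was at 75.7 to 83.7 CPM in unstimulated and 7.49 to 8.10 CPM in stimulated WT libraries and fell by 3.36 (SE 0.0867, adjusted p = 2.5e-15). In iNOS KO Selenoh spanned 64.3 to 70.0 CPM unstimulated and 50.2 to 56.3 CPM stimulated, and the difference between the responses was 3.01 (SE 0.113, adjusted p = 3.1e-12). Ndrg1, a stress-responsive gene, rose by 3.11 in WT and 0.94 in iNOS KO, a difference of -2.17 (adjusted p = 4.4e-11). Csrp1, a LIM domain protein, fell by 0.60 in WT and rose by 0.86 in iNOS KO (difference 1.46, SE 0.116, adjusted p = 3.5e-08). Selenow rose in both genotypes, by 1.68 in WT and 2.11 in iNOS KO (difference 0.43, SE 0.117, adjusted p = 0.0081). Gclc rose by 0.23 in WT and fell by 0.43 in iNOS KO (difference -0.65, SE 0.0930, adjusted p = 2.8e-05). Of 8 genes of copper handling, which metallothioneins also serve, 5 rose and 1 fell in WT, and between genotypes after stimulation 1 was higher and 5 were lower in iNOS KO, beside the same shares of all genes. In WT the largest rises among these were those of Atp7b (3.08, on 1 to 3 counts before and 8 to 16 after stimulation), Slc31a2 (2.63) and Slc31a1 (1.72). Between genotypes after stimulation the values of Atp7b, Atp7a and Slc31a2 were -3.51 (adjusted p = 0.00086), -1.03 (adjusted p = 1.9e-05) and -0.66 (adjusted p = 7.5e-07). Slc31a1 is the copper importer of the plasma membrane, and Atp7a and Atp7b are copper pumps. The remaining metallothioneins were scarce, Mt3 at no more than 9 counts and Mt4 at no more than 2 counts in any library labelled BMDM.

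By Pearson correlation of log2 CPM over the 12 libraries labelled BMDM, the protein-coding genes most like Slc39a14 were Bcor (r = 0.990), Bahd1 (r = 0.985) and Ppa1 (r = 0.984), and those most like Slc30a1 were Stx16, Azin1 and Ss18l2 (each r = 0.97). Mt1 was most like Apobec3, Myadm and Tlr9 (each r = 0.99), Mt2 most like Gadd45b, Cdk20 and Cyp4v3 (each r = 0.99), and Slc39a10 most like Gnl3 (r = 0.997), Smarcad1 (r = 0.996) and Larp4 (r = 0.995). These values describe 12 points that fall into 4 groups and share their libraries, and they are the highest of 8571 or 8572 genes searched. Over the 8 RAW264.7 libraries the genes most like Mt1 were Pigw (r = 0.976), Ldha (r = 0.963) and Olfr933 (r = 0.958), those most like Slc30a1 were Fblim1, Smarca2 and Mical3 (r from 0.980 to 0.989), and those most like Slc39a14 were Epc2, Bud31 and Psmc2 (r from 0.988 to 0.991).

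**Figure D5:**
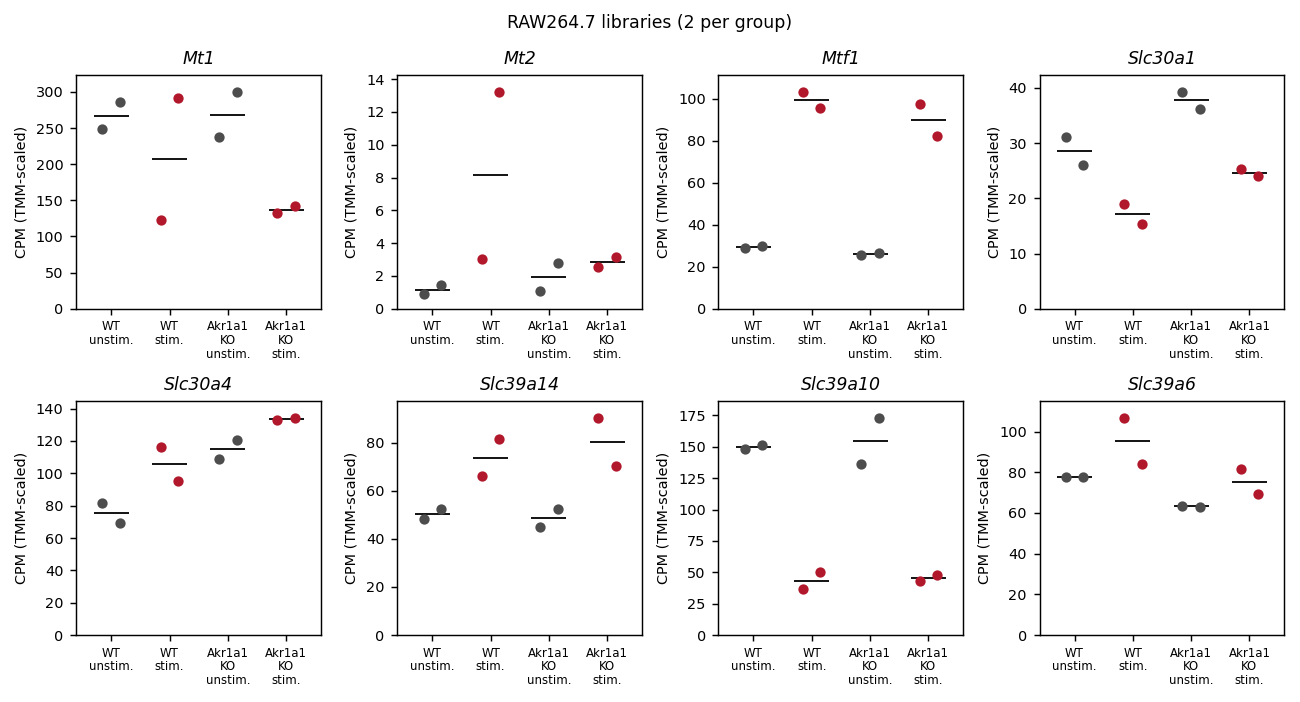
TMM-scaled CPM of the 8 zinc genes in the 8 RAW264.7 libraries, 2 points per group and a line at the mean, grey for unstimulated and red for stimulated cells. Mtf1 is higher and Slc39a10 lower in all 4 stimulated libraries, and the 2 stimulated WT libraries lie far apart for Mt1 (123 and 291 CPM) and Mt2 (3.05 and 13.2 CPM).

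In RAW264.7 cells the same stimulation was measured with less IFNγ and 2 libraries per group. In WT, 4 of the 8 genes rose and 2 fell, against 18.5% and 19.2% of all genes tested, with a median log2 fold change of 0.39 for the 8 and -0.03 for all genes. In Akr1a1 KO cells 2 rose and 2 fell, against 19.8% and 19.4%. Both experiments had a rise of Mtf1 and a fall of Slc39a10 in each genotype.

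Mtf1 was at 28.7 and 29.7 CPM in unstimulated and 103 and 95.4 CPM in stimulated WT RAW264.7 libraries, and at 25.4 and 26.6 and then 97.2 and 82.4 CPM in Akr1a1 KO. It rose by 1.77 in WT (SE 0.129, adjusted p = 2.66e-05) and 1.78 in Akr1a1 KO (SE 0.130, adjusted p = 2.58e-05). Slc39a10 was at 148 and 151 CPM before and 36.3 and 50.3 CPM after stimulation in WT, and at 136 and 173 and then 42.9 and 48.2 CPM in Akr1a1 KO. It fell by 1.79 in WT (SE 0.185, adjusted p = 0.000155) and by 1.76 in Akr1a1 KO (SE 0.185, adjusted p = 0.000154). These calls of Mtf1 and Slc39a10 held with each library left out in turn.

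In stimulated WT RAW264.7 cells both metallothioneins differed widely between the libraries. Mt1 was at 248 and 286 CPM in unstimulated libraries A and B and at 123 and 291 CPM in stimulated ones, and Mt2 at 0.872 and 1.44 and then 3.05 and 13.2 CPM. Stimulated library B was the higher of the pair for both. Mt1 had a log2 fold change of -0.37 (SE 0.335, adjusted p = 0.429), which was -1.07 (adjusted p = 0.00254) without stimulated library B and 0.19 (adjusted p = 0.391) without stimulated library A. Mt2 rose by 2.77 (SE 0.721, adjusted p = 0.0165), on 12 to 67 counts before and 41 to 235 after stimulation, and without stimulated library B its value was 1.41 (adjusted p = 0.112). The call of Mt2 was also lost without unstimulated library A (adjusted p = 0.0874) or B (adjusted p = 0.0627).

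In Akr1a1 KO RAW264.7 cells Mt1 was at 237 and 300 CPM before and 132 and 141 CPM after stimulation, without overlap, with a log2 fold change of -0.97 (SE 0.339, adjusted p = 0.051). DESeq2 gave an adjusted p of 0.0148 for it, and edgeR gave 0.000778 or 0.000826 when stimulated WT library A or B was left out. With the replicate letter as a block edgeR called it too (-0.95, adjusted p = 0.0223), as it did in a fit of the 2 Akr1a1 KO groups alone (-0.96, adjusted p = 0.00153), and whether a letter stands for the same clone in both states is not given in the sources used here. Mt2 was at 1.10 and 2.82 CPM before and 2.55 and 3.14 CPM after stimulation, which overlapped, with a value of 0.49 (SE 0.699, adjusted p = 0.621). The ratio of Mt1 to Mt2 per kilobase was 50.3 to 134 in the 4 unstimulated and 10.4 to 24.5 in the 4 stimulated RAW264.7 libraries, and the 2 ranges did not overlap.

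Slc30a1 fell in both genotypes of RAW264.7, by 0.74 in WT (SE 0.168, adjusted p = 0.00912) from 31.2 and 25.97 CPM to 19.0 and 15.3 CPM, and by 0.61 in Akr1a1 KO (SE 0.167, adjusted p = 0.0194) from 39.3 and 36.2 CPM to 25.3 and 24.0 CPM. The groups did not overlap, but the WT call was lost without stimulated library B (adjusted p = 0.0713) or unstimulated library A (adjusted p = 0.063), and the Akr1a1 KO call without any 1 of its 4 libraries (adjusted p from 0.0616 to 0.108). In a fit of the 2 WT groups alone the adjusted p of Slc30a1 was 0.0504. Slc39a14 rose by 0.56 in WT (SE 0.169, adjusted p = 0.0317) from 48.1 and 52.3 CPM to 66.0 and 81.7 CPM, and by 0.72 in Akr1a1 KO (SE 0.170, adjusted p = 0.00979) from 44.8 and 52.3 CPM to 90.2 and 70.4 CPM. The WT call was lost without stimulated library B (adjusted p = 0.0976) or unstimulated A or B (adjusted p = 0.137 and 0.0834), and the Akr1a1 KO call without stimulated A or unstimulated A (adjusted p = 0.0602 and 0.0738). Within a library, Slc39a14 to Slc30a1 per kilobase was 0.567 to 1.00 in unstimulated and 1.46 to 2.65 in stimulated RAW264.7 libraries.

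Slc30a4 rose in WT RAW264.7 cells by 0.49 (SE 0.141, adjusted p = 0.0257) from 81.6 and 69.5 CPM to 116 and 95.5 CPM, and its value in Akr1a1 KO was 0.22 (SE 0.140, adjusted p = 0.263). Its WT call was lost without stimulated library A (adjusted p = 0.0769), without unstimulated library B (adjusted p = 0.154), in a fit of the 2 WT groups alone (adjusted p = 0.0591) and with library totals alone (0.25, adjusted p = 0.234), a scaling that moved the median of all genes by -0.23 in WT and -0.145 in Akr1a1 KO and with which the WT value of Slc39a14 was 0.32 (adjusted p = 0.193). Slc39a6 had values of 0.30 in WT and 0.25 in Akr1a1 KO (adjusted p = 0.142 and 0.202), and 0.51 in WT without stimulated library B (adjusted p = 0.0276). Beside the libraries labelled BMDM, where the cells, IFNγ dose and depth differed and no test was made, Slc30a1 in WT fell in RAW264.7 cells and rose there, and Slc39a14 rose in WT RAW264.7 cells and was at 0.08 there.

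The second experiment also asked what loss of Akr1a1 changed. Between Akr1a1 KO and WT, 0 of the 8 genes passed in stimulated cells, where 0.286% of all genes tested did, and 0 in unstimulated cells, where 0.583% did. At an unadjusted p under 0.05 there were 3 in stimulated and 2 in unstimulated cells, beside 2178 and 1574 of the 19569 genes tested. DESeq2 called 0 and 1 of the 8, and it called more of all genes than edgeR in both states. The interaction of genotype and stimulation passed for 0 of the 8 and for 0.0204% of all genes. At an unadjusted p under 0.05 it passed for 1 of the 8 and for 1079 of all genes, and DESeq2 called 0 of the 8.

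Slc30a4, the gene that DESeq2 called, was at 81.6 and 69.5 CPM in unstimulated WT and 109 and 121 CPM in unstimulated Akr1a1 KO cells, without overlap. Its log2 fold change was 0.61 (SE 0.141, adjusted p = 0.165) in edgeR and 0.62 (adjusted p = 0.0224) in DESeq2, and in stimulated cells it was 0.34 (SE 0.140, adjusted p = 0.43). Slc30a1 was higher in both Akr1a1 KO libraries than in both WT libraries of each state, with values of 0.53 (SE 0.169, adjusted p = 0.312) stimulated and 0.40 (SE 0.166, adjusted p = 0.59) unstimulated. For the stimulated cells the value of Mt1 was -0.60 (SE 0.337, adjusted p = 0.554) and that of Mt2 was -1.52 (SE 0.688, adjusted p = 0.464). The value of Mt1 turned from -1.12 (adjusted p = 0.0388) without WT stimulated library A to 0.14 (adjusted p = 0.736) without B. Without the filter on low counts, where 1015 of all genes were called in place of 56, Mt1 and Mt2 passed in stimulated cells (adjusted p = 0.0172 and 0.0146), and Slc30a4 passed in unstimulated ones (adjusted p = 0.0154).

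Among the other zinc importers, 1 of 10 tested passed between unstimulated Akr1a1 KO and WT cells, in the direction of lower, and 0 of 6 exporters did, where 0.583% of all genes tested did. This was Slc39a8, an importer of zinc and manganese, which had 61 and 215 counts in unstimulated WT libraries and 0 and 4 counts in unstimulated Akr1a1 KO libraries, or 4.43 and 4.62 against 0 and 0.139 CPM (log2 fold change -5.55, SE 0.870, adjusted p = 0.0384). In stimulated cells it had 35 and 13 counts in WT and 1 and 1 in Akr1a1 KO (log2 fold change -4.54, SE 0.985, adjusted p = 0.158). In the libraries labelled BMDM Slc39a8 was at 1.17 to 3.002 CPM in all 12. Whether this difference belongs to the Akr1a1 deletion or to the clones cannot be told apart with these libraries.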

How the data were processed

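Poly(A) RNA-seq of 20 libraries was used. Per the labels, the authors' notes name STAR and mm10, and strand in counting is not given in the sources used here. The authors deposited raw counts per gene. Gene starts in the tables differ from RefSeq GRCm38.p6 (Mt1 94905710 against 94178883), so the 2 sets of positions were kept apart.

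Genes with 10 or more counts over an experiment were kept. Counts were scaled by TMM and fitted per experiment with 1 mean per group by edgeR 4.0.16 (quasi-likelihood F test, two-sided, R 4.3.3), with Benjamini-Hochberg adjustment over all genes tested and calls at 0.05. The spread between libraries limits precision (common dispersion 0.00845 in the first and 0.0522 in the second experiment). Scripts were tested on simulated data. Deviations of same-letter libraries correlated over 0.1 in all 3 pairs of stimulated and unstimulated iNOS KO (0.404, 0.497 and 0.121). Between no other groups of the first experiment did all 3 pairs do so. For letters A, B and C the values were 0.46, 0.387 and -0.146 between stimulated iNOS KO and stimulated WT. Between unstimulated iNOS KO and stimulated WT they were 0.258, 0.187 and -0.0161. No pair of the remaining groups correlated over 0.1. In RAW264.7 cells 2 libraries give both letters 1 value. There the deviations correlated at 0.438 in WT and 0.103 in Akr1a1 KO between the states, which 2 pairs do not settle.

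The 8 genes and all lists were chosen with earlier results of these data known. Named besides them are up to 3 called genes per list and direction with the largest change, the targeted genes, and the 3 genes most alike (mean log2 CPM over 3). Alternatives were DESeq2 1.42.0, its size factors, other filters, only the groups compared, a replicate block, a fold limit, each library left out and library totals alone. Matplotlib 3.10.9 drew the figures.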

Additional observations from a re-analysis of the deposited data

Results flagged for a closer look

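In the libraries labelled BMDM the response to stimulation differed between iNOS KO and WT by the interaction test for 3 of the 8 zinc genes. The response of iNOS KO minus that of WT was 0.82 for Slc39a14 (adjusted p = 1.32e-05 in edgeR), 0.39 for Mt1 (adjusted p = 0.00908) and -0.75 for Slc30a1 (adjusted p = 0.000139), each with 3 libraries per group. Groups of 2 or 3 libraries were too small for a check of single libraries as outliers.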

How the results depend on the processing

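The calls of Mt1, Mt2, Mtf1 and Slc39a10 with stimulation in the libraries labelled BMDM, of Slc39a14, Slc30a1 and Slc39a6 between stimulated iNOS KO and WT, and of Mtf1 and Slc39a10 with stimulation in RAW264.7 cells kept their direction and their side of the threshold in every alternative run except for the fold limit. Library totals alone and blocks in the groups compared alone were chosen after seeing the data. The cause of the changes below was not tested.

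With a fold limit of 2-fold added to the call, the count of the 8 zinc genes called was 3 for stimulation in WT labelled BMDM, 3 for stimulation in iNOS KO, 0 for stimulated iNOS KO against WT, 0 for the iNOS interaction, 3 for stimulation in WT RAW264.7 and 2 for stimulation in Akr1a1 KO. With a fold limit of 2-fold added to the call, the count of all genes called was 6611 for stimulation in WT labelled BMDM, 4258 for stimulation in iNOS KO, 3655 for stimulated iNOS KO against WT, 310 for unstimulated iNOS KO against WT, 2809 for the iNOS interaction and 4778 for stimulation in WT RAW264.7. With DESeq2, the count of the 8 zinc genes called was 1 for unstimulated Akr1a1 KO against WT. With DESeq2, the count of all genes called was 480 for stimulated Akr1a1 KO against WT, 406 for unstimulated Akr1a1 KO against WT and 90 for the Akr1a1 interaction. With DESeq2, log2 fold changes that changed sign were 0.0035 for Slc30a1 (unstimulated iNOS KO against WT), -0.0093 for Mtf1 (the Akr1a1 interaction) and -0.00056 for Slc39a10 (the Akr1a1 interaction). With DESeq2 size factors, the count of all genes called was 2 for the Akr1a1 interaction. With DESeq2 size factors, log2 fold changes that changed sign were 0.0034 for Slc30a1 (unstimulated iNOS KO against WT), -0.0086 for Mtf1 (the Akr1a1 interaction) and -6.1e-05 for Slc39a10 (the Akr1a1 interaction). With the filterByExpr filter, the count of all genes called was 1 for the Akr1a1 interaction. With the filterByExpr filter, log2 fold changes that changed sign were 0.0011 for Mtf1 (unstimulated iNOS KO against WT) and 0.0094 for Slc30a1 (unstimulated iNOS KO against WT). Without a filter, the count of the 8 zinc genes called was 1 for unstimulated iNOS KO against WT, 2 for stimulated Akr1a1 KO against WT, 1 for unstimulated Akr1a1 KO against WT and 1 for the Akr1a1 interaction. Without a filter, the count of all genes called was 1015 for stimulated Akr1a1 KO against WT, 846 for unstimulated Akr1a1 KO against WT and 285 for the Akr1a1 interaction. Without a filter, log2 fold changes that changed sign were -0.00075 for Mt1 (unstimulated Akr1a1 KO against WT). With protein-coding genes alone, the count of all genes called was 1 for the Akr1a1 interaction. With protein-coding genes alone, log2 fold changes that changed sign were 0.0062 for Mtf1 (unstimulated iNOS KO against WT) and 0.015 for Slc30a1 (unstimulated iNOS KO against WT). With only the groups compared, the count of the 8 zinc genes called was 3 for unstimulated iNOS KO against WT. With only the groups compared, the count of all genes called was 2715 for unstimulated iNOS KO against WT and 12 for stimulated Akr1a1 KO against WT. With only the groups compared, log2 fold changes that changed sign were -0.051 for Slc39a6 (stimulation in WT labelled BMDM), 0.0083 for Mtf1 (unstimulated iNOS KO against WT) and 0.018 for Slc30a1 (unstimulated iNOS KO against WT). With a replicate block, the count of all genes called was 2 for the Akr1a1 interaction. With a replicate block, log2 fold changes that changed sign were -0.0019 for Mt1 (unstimulated Akr1a1 KO against WT). With library totals as the only scaling, the count of all genes called was 2 for the Akr1a1 interaction. With library totals as the only scaling, log2 fold changes that changed sign were -0.052 for Slc30a1 (stimulation in WT labelled BMDM), -0.38 for Slc39a14 (stimulation in WT labelled BMDM), -0.46 for Slc39a6 (stimulation in WT labelled BMDM), -0.25 for Slc39a6 (stimulation in iNOS KO), 0.036 for Mtf1 (unstimulated iNOS KO against WT), 0.044 for Slc30a1 (unstimulated iNOS KO against WT), -0.0096 for Mt1 (unstimulated Akr1a1 KO against WT) and 0.041 for Slc39a6 (the Akr1a1 interaction). With the letters crossed as the replicate block in the 2 groups alone, the count of all genes called was 271 for unstimulated Akr1a1 KO against WT. With each library left out in turn, the count of the 8 zinc genes called ran from 3 to 6 for stimulated iNOS KO against WT, from 0 to 2 for unstimulated iNOS KO against WT, from 3 to 6 for stimulation in WT RAW264.7, from 2 to 5 for stimulation in Akr1a1 KO and from 0 to 1 for stimulated Akr1a1 KO against WT. The count of all genes called ran from 684 to 2371 for unstimulated iNOS KO against WT, from 6 to 108 for stimulated Akr1a1 KO against WT, from 22 to 177 for unstimulated Akr1a1 KO against WT and from 0 to 14 for the Akr1a1 interaction. For stimulation in WT labelled BMDM, fold changes that changed sign when a library was left out ran from -0.034 to 0.047 (Slc39a6). For stimulated iNOS KO against WT, fold changes that changed sign when a library was left out ran from -0.15 to 0.28 (Slc30a4). For unstimulated iNOS KO against WT, fold changes that changed sign when a library was left out ran from -0.071 to 0.031 (Mtf1) and from -0.044 to 0.044 (Slc30a1). For the iNOS interaction, fold changes that changed sign when a library was left out ran from -0.34 to 0.033 (Mt2). For stimulation in WT RAW264.7, fold changes that changed sign when a library was left out ran from -1.07 to 0.19 (Mt1). For stimulated Akr1a1 KO against WT, fold changes that changed sign when a library was left out ran from -0.10 to 0.28 (Slc39a14), from -0.17 to 0.31 (Slc39a10) and from -1.12 to 0.14 (Mt1). For unstimulated Akr1a1 KO against WT, fold changes that changed sign when a library was left out ran from -0.17 to 0.057 (Slc39a14), from -0.17 to 0.17 (Mt1), from -0.12 to 1.24 (Mt2) and from -0.14 to 0.21 (Slc39a10). For the Akr1a1 interaction, fold changes that changed sign when a library was left out ran from -0.17 to 0.092 (Mtf1), from -0.085 to 0.29 (Slc39a14), from -0.25 to 0.23 (Slc39a10), from -0.25 to 0.079 (Slc39a6), from -1.16 to 0.10 (Mt1) and from -0.071 to 0.25 (Slc30a1). Beside these, the counts of all genes called in the fits as reported were 11384 (stimulation in WT labelled BMDM), 9706 (stimulation in iNOS KO), 9040 (stimulated iNOS KO against WT), 1117 (unstimulated iNOS KO against WT), 6617 (the iNOS interaction), 7377 (stimulation in WT RAW264.7), 7675 (stimulation in Akr1a1 KO), 56 (stimulated Akr1a1 KO against WT), 114 (unstimulated Akr1a1 KO against WT) and 4 (the Akr1a1 interaction).

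The fits as reported had 1 mean per group and did not pair libraries. As an alternative chosen after seeing the data, the replicate letters were taken to pair the libraries of stimulated and unstimulated iNOS KO. In a fit of these 2 groups alone Slc39a6 missed the threshold with the replicate block (0.17, adjusted p = 0.0676) and without it (adjusted p = 0.0586), and Slc30a4 passed with the block (adjusted p = 0.0115) and not without it (adjusted p = 0.0801). Elsewhere the pairing is not settled, and the block over all groups of an experiment changed the calls of Mt1 (adjusted p = 0.0375) and Slc39a10 (adjusted p = 0.0522) between stimulated iNOS KO and WT and of Mt1 with stimulation in Akr1a1 KO (-0.95, adjusted p = 0.0223). Counts limit Mt2, with 12 counts in its lowest library, and 2 libraries per group limit every comparison in RAW264.7 cells.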
